A study of Homo sapiens with 12 samples.

Results

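Mitosis and G2/M genes are the genes whose products carry a cell from the end of DNA replication through chromosome segregation to cell separation. The 45 genes described here were given as a list of names and were matched by symbol in the deposited tables, where all 45 of 58174 genes were found. The RNA came from 2 established human lines of glioblastoma, LN229 and U251, each grown in its own medium. Cells of each line were reverse transfected with siRNA against XRN2, with a control siRNA, or without siRNA (mock), and RNA was taken after 72 hours. XRN2 encodes a nuclear exoribonuclease that degrades RNA from its 5′ end, known for its work behind RNA polymerase II at the ends of genes. The 12 libraries form 6 groups of 2, the labels name no engineered allele in either line, and each line stands only for itself. The labels do not say that replicates came from separate cultures, and the p-values given here then reflect only how far these libraries scatter, which may be technical.

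Entry into mitosis is driven by the kinase CDK1 bound to B-type cyclins, and the mitotic kinases PLK1, Aurora A and Aurora B then direct spindle assembly and chromosome attachment. Kinetochores bind the chromosomes to microtubules, and the spindle checkpoint holds back the anaphase-promoting complex (APC/C), the ubiquitin ligase that starts sister separation, until attachment is complete. Most of these genes are transcribed late in the cell cycle under the DREAM, B-MYB and FOXM1 factors, whose known promoter elements include CCAAT boxes and the cell cycle genes homology region (CHR), so their RNA is widely used as a measure of cycling cells in tumours.

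Exons received 4846768 to 7469052 reads in a library, and every one of the 45 genes was covered by at least 60 reads in each library. The label check held in all libraries. XRN2 stood at 33.5 and 25.6 CPM (reads relative to the library total, scaled between libraries) with XRN2 siRNA in LN229, against 202 to 243 in its other 4 libraries, and at 31.1 and 26.2 in U251 against 134 to 144. Both lines expressed the glioma-associated genes SOX2, NES, VIM and CD44, while GFAP reached only 1.05 to 4.31 CPM in LN229 and AQP4 was at or near 0 in both lines. Other glial genes were unlike. Before scaling, OLIG2 was at 7.06 to 10.0 CPM in LN229 and at most 0.150 in U251. SOX9 was at 1.87 to 7.68 and 208 to 333 in that order, and S100B at 308 to 582 and 13.8 to 20.55. The blood gene PTPRC and the epithelial gene EPCAM did not exceed 0.301 CPM before scaling. Other markers of those and further cells were present, CD68 at 44.3 to 65.9 in U251, and KRT18 at 40.8 to 87.7 and COL1A1 at 287 to 436.5 in LN229. Of 16 markers of other cells, 11 were tested, and against control siRNA in LN229 MBP had the only call, with a log2 fold change of 1.81 in LN229 (SE 0.40, adjusted p = 0.0325), at 3.54 and 4.53 CPM before scaling against 0.706 to 1.47 in the LN229 controls. A pair of control libraries stood apart. LN229 control siRNA replicate 1 read low for long transcripts, and U251 mock replicate 2 held 375.9 CPM of the stress gene DDIT3 against at most 17.3 in the other U251 libraries. The main counts and medians are also given without them.

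With XRN2 siRNA, all 45 mitosis genes had lower point values than with control siRNA in both lines, and 21 passed the test in LN229 and 0 in U251. Against control siRNA in LN229, 45 of 45 genes had a log2 fold change below 0 (50.1% of all 14232 genes tested did), with a median of −0.73 where the median of all tested genes was −0.00078. Of these, 21 fell past the threshold (adjusted p under 0.05, edgeR's quasi-likelihood test, Benjamini-Hochberg over all tested genes), a call that 1.95% of all tested genes received, and none rose (1.21% did). The 21 were MAD2L1, CKS1B, NUF2, UBE2C, AURKB, BIRC5, CDC20, FOXM1, PTTG1, PLK1, CDC25C, CDK1, CCNB2, NDC80, KIF2C, CENPA, CDCA8, CCNB1, NUSAP1, RACGAP1 and NEK2. In U251 the same 45 genes also lay below 0 against control siRNA, with a median of −0.39 (49.5% of all tested genes lay below 0), but 0 passed by edgeR and 0 by DESeq2. At an unadjusted p under 0.05 there were 14, where 1.57% of all tested genes were lower at that level, and only 0.00703% (XRN2 itself) were lower past the adjusted threshold. In bulk RNA, fewer cells in G2 and mitosis and less of this RNA per cell cannot be told apart.

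The LN229 count rests on single libraries. It was 0 without XRN2 siRNA replicate 2, 2 without control siRNA replicate 1 (median −0.79), 32 without XRN2 siRNA replicate 1, and 0 when only the LN229 libraries or only the compared groups were fitted, while the median kept its sign (−1.05 to −0.50 with each library left out in turn). Fitted on its 4 compared libraries alone, U251 had 29 of the 45 called, and 497 over all genes, against 1 with all 12 libraries. Calls over all genes in LN229 were 450 with all 12 libraries, 1 with its own libraries alone and 4 with the compared groups alone. They also moved in the same direction as those of the 45 in the fits without a library named here. Leaving out 1 LN229 mock, U251 control siRNA or U251 XRN2 siRNA library, none of them compared here, lowered the calls of the 45 and of all genes. Without scaling factors between libraries, 18 of the 45 were called in LN229, and all tested genes split into 197 lower and 277 higher, against 278 and 172 with them.

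The mock libraries gave the second control. Against mock in LN229, 45 of 45 lay below 0 (50.5% of all tested genes) with a median of −0.71, and 8 fell past the threshold (0.738% of all tested genes did): MAD2L1, NUF2, CDCA8, FOXM1, PLK1, CDC20, UBE2C and KIF2C. That count was 0 without either mock replicate or without XRN2 siRNA replicate 2. Libraries outside this comparison moved the LN229 count too. It fell without any 1 of the U251 control siRNA and XRN2 siRNA libraries, and rose without either LN229 control siRNA library. Calls over all genes in LN229 against mock moved in the same direction. Against mock in U251, 44 of 45 lay below 0 (46.2% of all tested genes) with a median of −0.27, and 0 passed by edgeR or DESeq2 (0.00703% of all tested genes were called lower). At an unadjusted p under 0.05, 4 were lower, and 4.98% of all tested genes were. Without mock replicate 2, the library with the high stress transcripts, this median was −0.37, and without mock replicate 1 it was −0.20. Control siRNA was compared with mock in the same way. No gene of the 45 was called in either line by edgeR or DESeq2 or had an unadjusted p under 0.05 (1.97% of all tested genes in LN229 and 3% in U251 were lower at that level), with medians of 0.06 in LN229 and 0.10 in U251, and no tested gene was called by edgeR (0% lower). Without LN229 control siRNA replicate 2, 1913 genes and 3 of the 45 (lower) were called in LN229, and without U251 mock replicate 1, 475 genes and 0 of the 45 in U251.

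Averaged over both lines against control siRNA, 15 of the 45 fell past the threshold, against 0.773% of all tested genes, all 45 lay below 0 (49.4% of all tested genes), and the median was −0.53. They were CDK1, CCNB1, CCNB2, CKS1B, FOXM1, CDC25C, PLK1, AURKB, CDCA8, MAD2L1, NUF2, CENPA, CDC20, UBE2C and KIF2C. The count was 0 without any 1 of the 4 compared U251 libraries and 0 with the compared groups alone. It fell without LN229 control siRNA replicate 1, without LN229 XRN2 siRNA replicate 2 and without either LN229 mock replicate. It rose without LN229 control siRNA replicate 2 and without LN229 XRN2 siRNA replicate 1. Calls over all genes, 173 with all 12 libraries, moved in the same direction in each of these fits.

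Library by library, treated and control groups separated for a larger share of the 45 than of all tested genes, whatever the size of the gap. In LN229 both XRN2 siRNA libraries lay below both control siRNA libraries for 35 of 45 genes (23.6% of all tested genes) and below both mock libraries for 44 (29.4%), CKS2 being the exception. Below all 4 controls they lay for 34 (16.9%). In U251 the numbers were 40 against control siRNA (21.9%), 27 against mock (19.6%) and 25 against all 4 (10.6%). For 22 genes the XRN2 siRNA libraries lay below all 4 controls in both lines, which held for 4.38% of all tested genes.

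**Figure D1:**
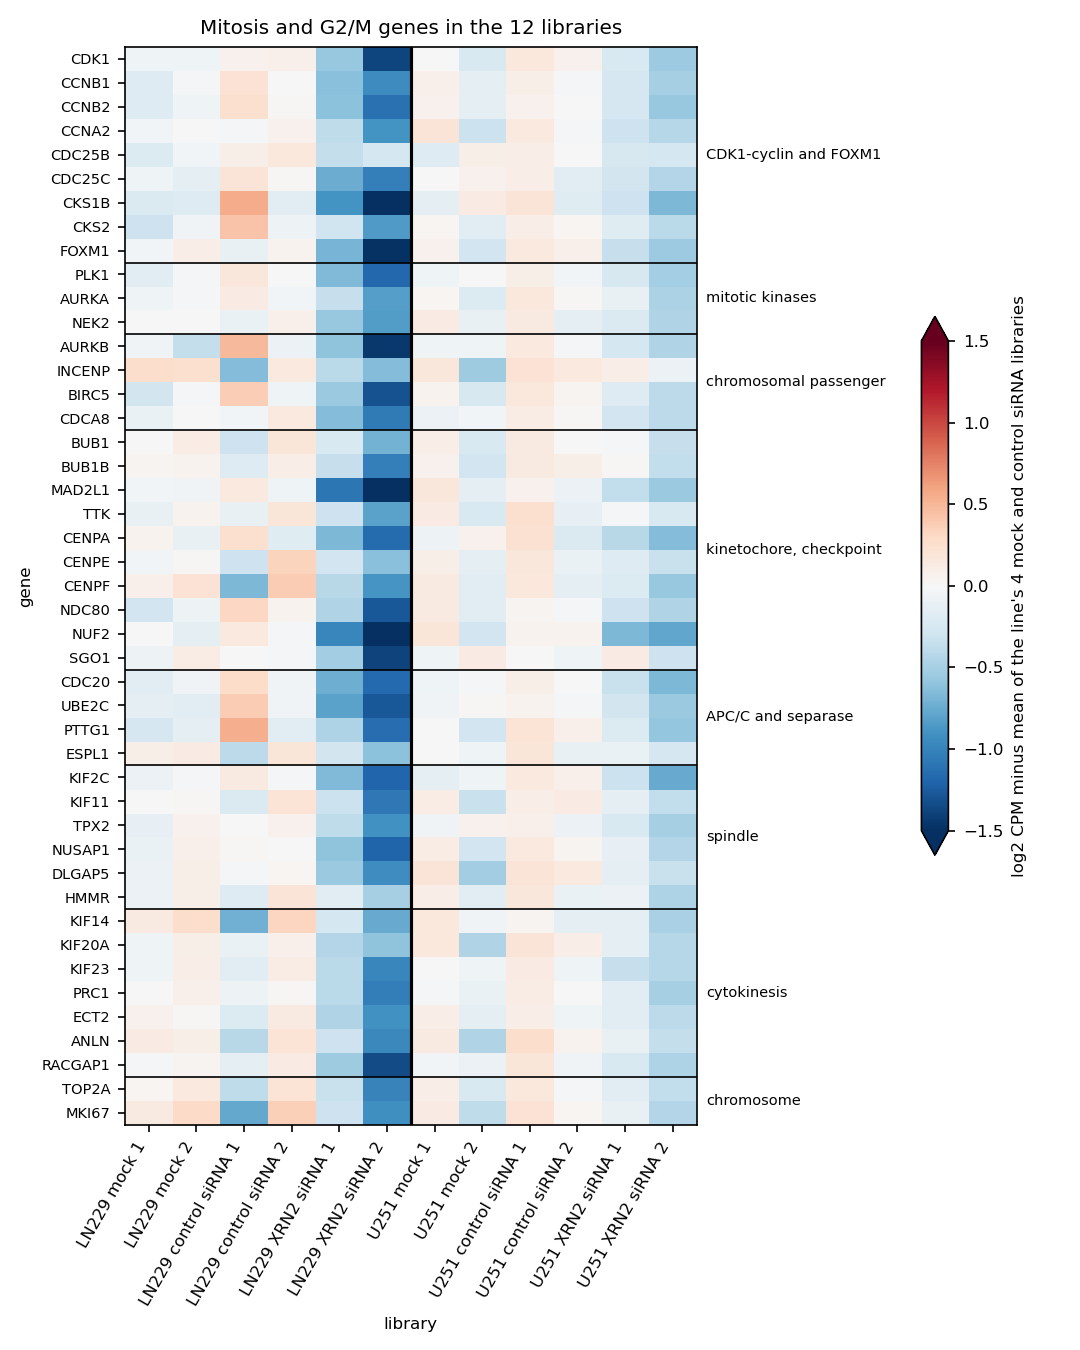
Each row is a gene and each column a library; colour is log2 CPM minus the mean of its line's 4 controls (mock and control siRNA), clipped at 1.5 either way, with genes grouped by role. In XRN2 siRNA replicate 2 of LN229 and of U251 all 45 genes are below that mean, with medians of −1.02 and −0.45, and LN229 control siRNA replicate 1 mixes high short genes such as CKS1B with low long ones such as MKI67.

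The replicates of the treated groups differed in depth of change. Relative to the mean of their line's 4 controls, the median gene stood at −0.45 in LN229 XRN2 siRNA replicate 1 and −1.02 in replicate 2, and at −0.20 and −0.45 in U251. All 45 genes were below 0 in 3 of these 4 libraries, and 42 were in U251 replicate 1. In LN229 replicate 2 read lower than replicate 1 for 44 of 45 genes, by a median of 0.52 on the log2 scale, and CDC25B was the exception. In U251 replicate 2 was lower for 45 of 45, by a median of 0.24. XRN2 RNA was also lower in replicate 2 than in replicate 1 in both lines (25.6 against 33.5 CPM, and 26.2 against 31.1), and its part in the difference was not tested. The U251 control siRNA replicates were split in the same way, replicate 2 being lower for 44 of 45 genes, by 0.13. In U251 mock, replicate 2 was lower for 33 genes, with a median of 0.24 over the 45. The LN229 controls went the other way, replicate 2 being higher for 35 genes in mock and 26 with control siRNA.

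Summed over the 45 genes, exon reads made up 7551 and 8101 CPM in the LN229 mock libraries, 7320 and 8409 with control siRNA, and 5636 and 3890 with XRN2 siRNA. In U251 the sums were 6207 and 5206, then 6579 and 5906, then 5209 and 4351. The treated groups thus held 60.6% of the control siRNA mean in LN229 and 76.6% in U251, and U251 XRN2 siRNA replicate 1 overlapped the mock range. Reads in the introns of the same genes, which come largely from unspliced RNA, were counted separately in the deposited tables. Scaled to the intron reads of the library, as intron CPM, they numbered 4900 and 5060 in LN229 mock, 4700 and 5030 with control siRNA, and 3559 and 2504 with XRN2 siRNA. In U251 they numbered 3140 and 2823, then 3370 and 2952, then 2673 and 2168. Intron reads in the treated groups were at 62.3% of control siRNA in LN229 and 76.6% in U251, close to the exon values, and both treated libraries of each line lay below all 4 controls.

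**Figure D2:**
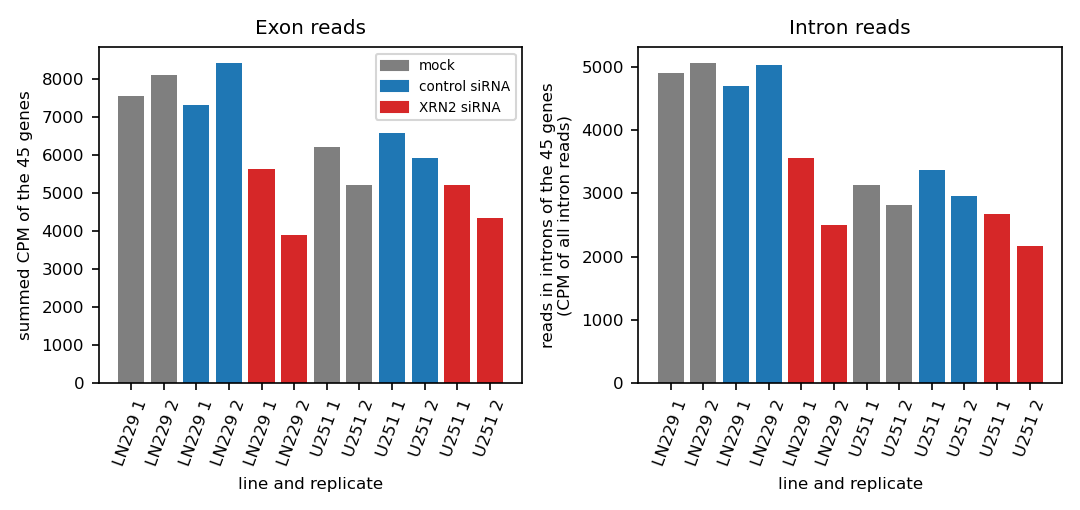
Bars give, for each library, the summed CPM of the 45 genes from exon reads (left) and their intron CPM, scaled to all intron reads (right), coloured by transfection. The XRN2 siRNA bars of LN229 (5636 and 3890 CPM; 3559 and 2504 intron CPM) are the lowest of that line in both panels.

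The order of the genes was partly shared by the lines. The log2 fold changes against control siRNA in LN229 and U251, which share no library, correlated over the 45 genes with Pearson's r of 0.63 and Spearman's rho of 0.71, against 0.16 and 0.32 over all 14232 tested genes. Genes are not independent replicates, and the value describes these libraries only. The change was more negative in LN229 for all 45 (53.2% of all tested genes), with a median difference between the lines of −0.35, widest for MAD2L1 (−1.12, SE 0.37) and narrowest for HMMR (−0.03, SE 0.27). No difference passed the threshold by edgeR or DESeq2 (0% of all tested genes were called lower by edgeR). At an unadjusted p under 0.05 there were 8, against 3.75% of all tested genes, so a larger change in LN229 is not established for any single gene. Without LN229 XRN2 siRNA replicate 2 the median difference was −0.14, with 33 of 45 below 0, and without LN229 control siRNA replicate 1 it was −0.40, with 45 below 0.

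**Figure D3:**
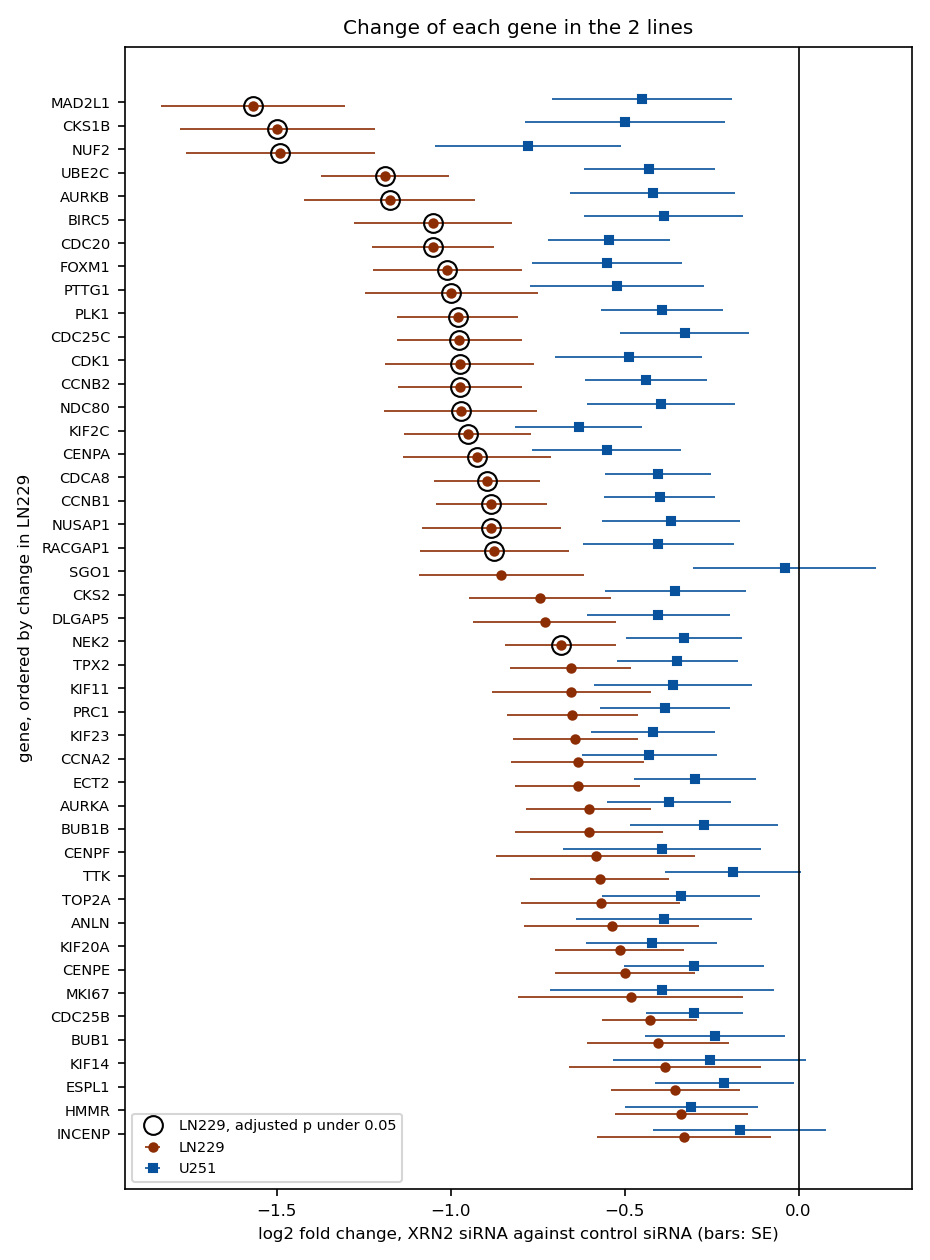
Log2 fold change of each gene with XRN2 siRNA against control siRNA in LN229 (circles) and U251 (squares), bars being SE, ordered by LN229; open rings mark the 21 genes with adjusted p under 0.05. Values run from −1.57 (MAD2L1) to −0.33 (INCENP) in LN229 and from −0.78 (NUF2) to −0.04 (SGO1) in U251.

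The genes shared promoter sequence already known for genes of this kind, CCAAT boxes and the CHR element. An excess of these matches is therefore no independent support for the list. Of the 45, 38 had a window from 250 bases before to 50 after the transcription start in RefSeq (GRCh38.p14), and TTK, BIRC5, RACGAP1, AURKA, TPX2, UBE2C and FOXM1 had none. The letters TTTGAA, the core of the CHR element, were found on either strand in 27 of 38 windows (71.1%), against 14.1% of the 10474 tested genes with a window and 18.2% of all 27305 genes with one. CCAAT, on either strand, was found in 32 (84.2%) against 43.6% and 39.7%, and at least 2 CCAAT matches in 21 (55.3%) against 16.3% and 12.9%. Both motifs stood in 23 windows (60.5%), against 5.81% and 7.26%. Only TTTGAA was searched for the CHR element, so a gene with another spelling of it counts as without it. Having the TTTGAA letters did not sort the genes by size of change. The median log2 fold change against control siRNA was −0.73 with them and −0.68 without them in LN229, and −0.39 and −0.40 in U251. The 120 bases before the start are shown for 5 genes with both motifs and for CCNB1 and KIF2C, which lack TTTGAA but were called in LN229. Sequences read 5′ to 3′ along the gene, capitals mark the CHR letters and the CCAAT box, which appears as ATTGG where it lies on the other strand, and all 7 genes lie on the plus strand. CCNB2 is shown for chr15:59105026-59105145, CDC20 for chr1:43358861-43358980, PLK1 for chr16:23678769-23678888, CKS1B for chr1:154974561-154974680, CDCA8 for chr1:37692396-37692515, CCNB1 for chr5:69167030-69167149 and KIF2C for chr1:44739717-44739836.
CCNB2: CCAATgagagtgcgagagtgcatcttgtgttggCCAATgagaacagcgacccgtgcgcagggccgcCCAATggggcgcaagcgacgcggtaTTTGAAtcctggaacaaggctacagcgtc
CDC20: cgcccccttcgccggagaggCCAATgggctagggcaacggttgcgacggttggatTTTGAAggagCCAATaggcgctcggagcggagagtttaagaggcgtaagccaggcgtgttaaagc
PLK1: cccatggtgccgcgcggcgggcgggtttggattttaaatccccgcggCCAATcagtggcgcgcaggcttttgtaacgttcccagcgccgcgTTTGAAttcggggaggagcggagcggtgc
CKS1B: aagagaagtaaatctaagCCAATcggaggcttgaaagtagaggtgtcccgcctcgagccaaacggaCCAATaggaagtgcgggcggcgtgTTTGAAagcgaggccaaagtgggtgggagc
CDCA8: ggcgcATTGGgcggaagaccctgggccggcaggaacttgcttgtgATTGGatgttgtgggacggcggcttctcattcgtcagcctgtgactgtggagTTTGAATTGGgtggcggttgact
CCNB1: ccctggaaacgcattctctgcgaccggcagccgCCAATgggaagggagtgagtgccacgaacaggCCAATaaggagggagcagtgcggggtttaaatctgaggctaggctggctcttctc
KIF2C: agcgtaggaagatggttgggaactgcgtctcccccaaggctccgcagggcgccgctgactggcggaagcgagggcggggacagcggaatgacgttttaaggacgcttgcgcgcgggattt
In CCNB2 and PLK1 the CHR letters begin 29 bases before the start, in CKS1B 30 and in CDC20 65. CDCA8 has them at 23 bases, where they overlap an ATTGG. The CCAAT letters of CCNB2 begin at 120, 87 and 54 bases. These matches describe letters in a window and show no binding.

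Genes of the CDK1 and cyclin B engine, which triggers entry into mitosis, had a median of −0.97 in LN229 and −0.43 in U251. In LN229 6 of 9 were called, where 1.95% of all tested genes were called lower. CCNB1 (ENSG00000134057; chr5:69167010-69178245, GRCh38) encodes cyclin B1, the main activating partner of CDK1. It stood at 221 and 249.4 CPM in LN229 mock, 294 and 252 with control siRNA, and 164 and 132 with XRN2 siRNA. In U251 it stood at 223 and 193, then 224 and 207, then 178 and 149.6. Both treated libraries were below all 4 controls in each line, and CCNB1 fell by 0.88 in LN229 (SE 0.16, adjusted p = 0.019) and lay at −0.40 in U251 (SE 0.16, unadjusted p = 0.027). CCNB2, the second B-type cyclin, and CDK1 itself were both at −0.97 in LN229, and at −0.44 and −0.49 in U251.

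CKS1B (ENSG00000173207; chr1:154974653-154979249), which encodes a small adaptor of CDK complexes, read 111 and 112 CPM in LN229 mock, 189 and 115 with control siRNA, and 69.1 and 37.9 with XRN2 siRNA. It read 53.1 and 63.8, then 67.0 and 51.8, then 47.2 and 36.8 in U251. Treated and control libraries did not overlap in either line, but control siRNA replicate 1 of LN229 was far above the other controls. The change was −1.50 in LN229 against control siRNA (SE 0.28, adjusted p = 0.022) and −1.05 against mock (SE 0.28, adjusted p = 0.084), and −0.50 in U251 (SE 0.29). Only 49.0% of its exon reads were unique, so reads may be shared with near-identical copies.

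FOXM1 (ENSG00000111206; chr12:2857681-2877155), a transcription factor that drives late cell-cycle genes, read 287 and 317 CPM in LN229 mock, 273 and 306 with control siRNA, and 182 and 105 with XRN2 siRNA. The U251 libraries gave 155 and 121, then 164 and 155, then 116 and 102. All treated libraries were below all controls of their line. The log2 fold change was −1.01 in LN229 (SE 0.21, adjusted p = 0.029), −1.07 against mock there, and −0.55 in U251 (SE 0.22, unadjusted p = 0.024). FOXM1 overlaps RHNO1 and ITFG2, and 40.4% of its exon reads were unique, so part of its reads may belong to those genes. Among the other engine genes, CDC25C, a phosphatase that activates CDK1, was at −0.98 in LN229 (adjusted p = 0.019), while its relative CDC25B was at −0.43 (adjusted p = 0.096) and −0.19 against mock, the value nearest 0 of all 45 in that comparison. CCNA2, cyclin A2, was at −0.64 (adjusted p = 0.080) and CKS2 at −0.74 (adjusted p = 0.062).

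The mitotic kinases outside the CDK1 complex had a median of −0.68 in LN229 and −0.37 in U251. In LN229 2 of 3 were called (1.95% of all tested genes). PLK1 (ENSG00000166851; chr16:23677656-23690367), which acts in centrosome maturation, mitotic entry and cytokinesis, read 126 and 139 CPM in LN229 mock, 158 and 140.3 with control siRNA, and 88.9 and 61.9 with XRN2 siRNA. U251 had 75.3 and 79.4, then 83.9 and 76.8, then 66.9 and 55.4. The treated libraries were lowest in both lines. PLK1 fell by 0.98 against control siRNA (SE 0.17, adjusted p = 0.017) and by 0.81 against mock (SE 0.17, adjusted p = 0.042) in LN229, and was at −0.39 in U251 (SE 0.18, unadjusted p = 0.043). NEK2, a centrosomal kinase, was at −0.68 in LN229 (adjusted p = 0.039) and AURKA, Aurora A, at −0.60 (adjusted p = 0.078).

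The chromosomal passenger complex, which corrects wrong kinetochore attachments and later guides cytokinesis, consists of the kinase Aurora B (AURKB), INCENP, survivin (BIRC5) and borealin (CDCA8). Its median was −0.97 in LN229 and −0.40 in U251, with 3 of 4 called in LN229 (1.95% of all tested genes). CDCA8 (ENSG00000134690; chr1:37692418-37709719) read 83.2 and 88.2 CPM in LN229 mock, 86.1 and 98.4 with control siRNA, and 56.4 and 42.4 with XRN2 siRNA. For U251 the values were 65.2 and 67.1, then 74.7 and 70.1, then 56.8 and 52.7. Treated and control libraries did not overlap in either line, and the replicates of each control group were close. CDCA8 fell in LN229 against both controls, by 0.90 (SE 0.15, adjusted p = 0.014) and 0.79 (SE 0.15, adjusted p = 0.030), and was at −0.40 in U251 (SE 0.15, unadjusted p = 0.020).

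AURKB (ENSG00000178999; chr17:8204733-8210600) read 56.0 and 45.3 CPM in LN229 mock, 81.3 and 54.4 with control siRNA, and 38.1 and 21.2 with XRN2 siRNA. It read 63.8 and 63.9, then 73.6 and 65.9, then 55.6 and 48.6 in U251. The change was −1.18 against control siRNA in LN229 (SE 0.25, adjusted p = 0.027) and −0.76 against mock (adjusted p = 0.14). INCENP (ENSG00000149503; chr11:62123973-62153163), the scaffold of the complex, had the value nearest 0 in LN229 against control siRNA. It read 115 and 113 CPM in mock, 60.5 and 105 with control siRNA and 71.8 and 60.5 with XRN2 siRNA, and in U251 77.6 and 47.3, then 79.6 and 76.3, then 73.7 and 64.8. The low control siRNA replicate 1 of LN229 overlapped the treated libraries, while mock did not, so the change there was −0.33 against control siRNA (SE 0.25, adjusted p = 0.46) and −0.78 against mock (SE 0.25, adjusted p = 0.14). In U251 it was −0.17 against control siRNA and 0.15 against mock, and −0.16 against mock without mock replicate 2.

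Kinetochore and spindle checkpoint genes ranged widest, from −1.57 to −0.40 in LN229 (median −0.73) and from −0.78 to −0.04 in U251 (median −0.35). In LN229 4 of 10 were called (1.95% of all tested genes). MAD2L1 (ENSG00000164109; chr4:120055608-120067074) encodes MAD2, the checkpoint protein that holds CDC20 inactive. It read 86.9 and 86.3 CPM in LN229 mock, 98.6 and 85.6 with control siRNA, and 42.2 and 19.1 with XRN2 siRNA, and in U251 75.1 and 60.05, then 69.7 and 62.7, then 51.7 and 45.2. This was the lowest fold change of the list in LN229 against either control, −1.57 (SE 0.26, adjusted p = 0.014) and −1.48 (SE 0.26, adjusted p = 0.022), a mean level of 33.3% of control siRNA. In U251 the value was −0.45 (SE 0.26, unadjusted p = 0.11), or 73.2%.

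NUF2 (ENSG00000143228; chr1:163266576-163355764) is a subunit of the NDC80 complex, which binds microtubules at the kinetochore. It read 65.8 and 60.4 CPM in LN229 mock, 73.4 and 65.5 with control siRNA, and 33.7 and 15.1 with XRN2 siRNA. In U251 it read 61.7 and 44.6, then 56.4 and 56.2, then 34.0 and 31.6. It ranked the third from the bottom in LN229 and lowest in U251, at −1.49 (SE 0.27, adjusted p = 0.019) and −0.78 (SE 0.27, unadjusted p = 0.012), with all 4 treated libraries below all controls of their lines. NDC80, its partner in the complex, was at −0.97 (adjusted p = 0.035) and −0.39.

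CENPA (ENSG00000115163; chr2:26764289-26801067), the histone variant that marks centromeres, read 41.6 and 37.2 CPM in LN229 mock, 47.6 and 35.4 with control siRNA, and 25.2 and 18.1 with XRN2 siRNA. It read 31.0 and 34.1, then 38.4 and 28.0, then 24.5 and 20.8 in U251. The log2 fold change was −0.92 in LN229 (SE 0.21, adjusted p = 0.038) and −0.55 in U251 (SE 0.21, unadjusted p = 0.023). SGO1 (ENSG00000129810; chr3:20160593-20186292), which protects centromeric cohesion, had unlike point values in the lines. In LN229 it read 30.1 and 34.1 CPM in mock, 31.7 and 31.0 with control siRNA and 22.1 and 12.1 with XRN2 siRNA, at −0.85 (SE 0.24, adjusted p = 0.065). Its U251 values were 12.04 and 13.7, then 12.6 and 11.98, then 13.7 and 10.1, at −0.04 (SE 0.26), and the groups overlapped. The difference between the lines was −0.81 (SE 0.35, unadjusted p = 0.039, adjusted p = 0.74).

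TTK (ENSG00000112742; chr6:80003887-80042527), the checkpoint kinase MPS1, read 51.5 and 57.7 CPM in LN229 mock, 51.6 and 63.2 with control siRNA, and 44.9 and 32.1 with XRN2 siRNA. It read 62.5 and 49.1, then 67.8 and 52.7, then 56.8 and 49.0 in U251, where treated and control libraries overlapped. It was at −0.57 in LN229 (SE 0.20, adjusted p = 0.12) and −0.19 in U251 (SE 0.20). The other checkpoint kinase BUB1 and the pseudokinase BUB1B were at −0.40 and −0.60 in LN229 and did not pass (adjusted p = 0.26 and 0.12), and the large kinetochore proteins CENPE and CENPF were at −0.50 and −0.58 (0.17 and 0.25).

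The APC/C and separase group, which degrades cyclin B and frees the sister chromatids, had the lowest median of the 8 role groups against control siRNA in both lines, −1.02 in LN229 and −0.48 in U251. In LN229 3 of 4 were called (1.95% of all tested genes). Against mock the group's median was −0.69 in LN229 and −0.32 in U251, and not the lowest in either. Without LN229 control siRNA replicate 1 its median in LN229 was −0.71, the value nearest 0 of the 8 groups, which then reached down to −0.85 for the chromosome proteins, with 1 gene called here, 1 in the passenger complex and 0 in the other groups. CDC20 (ENSG00000117399; chr1:43358955-43363203), the mitotic activator of the APC/C, read 170.1 and 185 CPM in LN229 mock, 232 and 185 with control siRNA, and 115 and 85.6 with XRN2 siRNA. The U251 libraries gave 144 and 147, then 161 and 151, then 119 and 94.0. Every treated library was below every control of its line. It fell in LN229 against control siRNA by 1.05 (SE 0.18, adjusted p = 0.014) and against mock by 0.82 (adjusted p = 0.042), and was at −0.54 in U251 (SE 0.18, unadjusted p = 0.0082). CDC20 had the smallest p of all 45 in the mean of both lines, −0.80 (SE 0.12, adjusted p = 0.020).

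UBE2C (ENSG00000175063; chr20:45812576-45816957), the ubiquitin-conjugating enzyme that starts chains for the APC/C, read 151 and 148 CPM in LN229 mock, 218 and 161 with control siRNA, and 96.3 and 69.6 with XRN2 siRNA. It read 63.3 and 66.5, then 68.0 and 65.0, then 54.1 and 44.6 in U251, again with no overlap. Its changes were −1.19 in LN229 (SE 0.18, adjusted p = 0.013) and −0.43 in U251 (SE 0.19, unadjusted p = 0.040). PTTG1, securin, the inhibitor that the APC/C removes from separase, was at −0.998 in LN229 (adjusted p = 0.049) and −0.57 against mock (adjusted p = 0.27). ESPL1 (ENSG00000135476; chr12:53268299-53293643), separase itself, which cleaves cohesin, read 152 and 156 CPM in LN229 mock, 109 and 161 with control siRNA, and 118 and 93.3 with XRN2 siRNA. U251 had 40.5 and 38.4, then 45.5 and 37.2, then 37.6 and 33.8. The groups overlapped against control siRNA in both lines, and ESPL1 did not pass, at −0.35 (SE 0.19, adjusted p = 0.28) and −0.21 (SE 0.20).

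**Figure D4:**
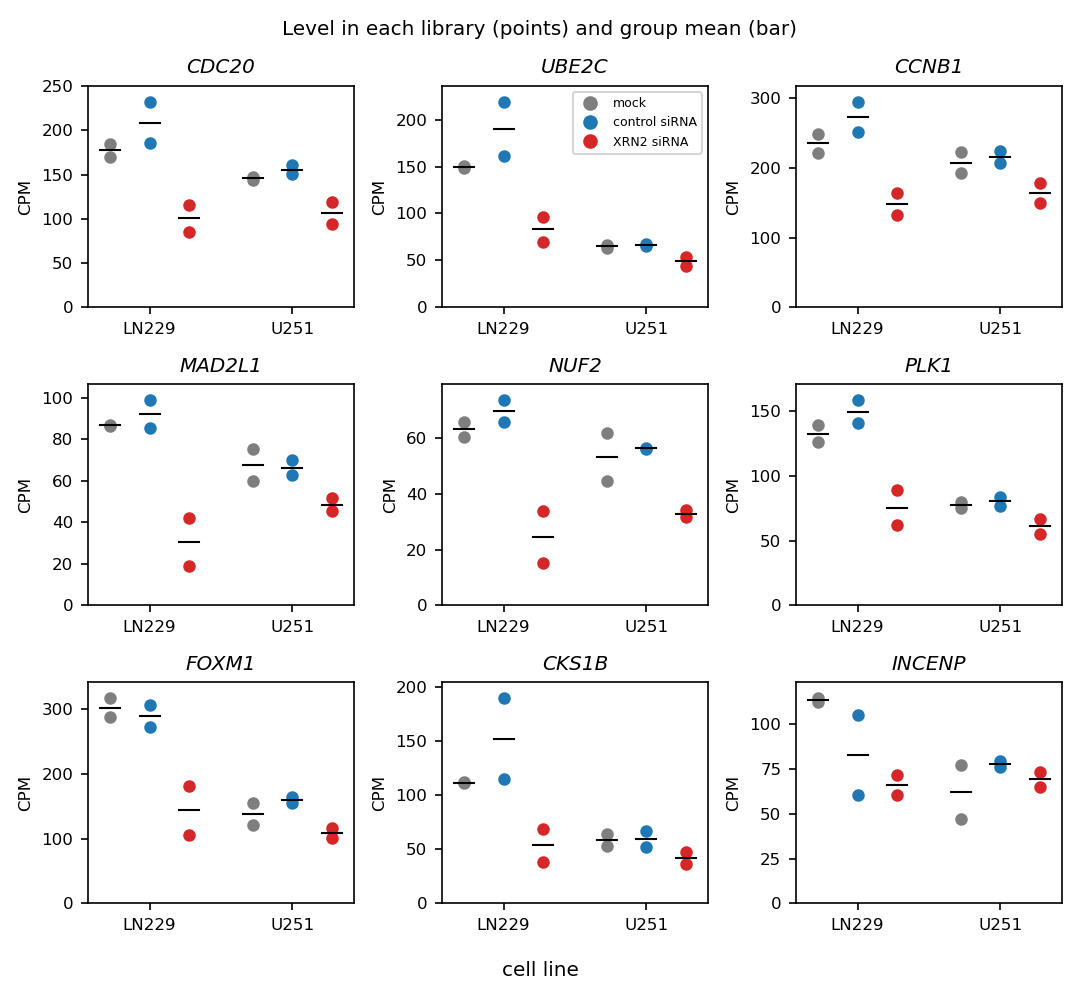
Level in CPM of 9 genes in each library (points, coloured by transfection) with the mean of each group (bar), LN229 on the left and U251 on the right of each panel. For 8 of the 9 both XRN2 siRNA points lie below the control siRNA and mock points of their line, and INCENP is the exception, with 71.8 and 60.5 CPM against 60.5 and 105 with control siRNA in LN229.

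Spindle motors and assembly factors had medians of −0.69 in LN229 and −0.36 in U251, with 2 of 6 called in LN229 (1.95% of all tested genes). KIF2C (ENSG00000142945; chr1:44739818-44767767), the microtubule-depolymerising kinesin MCAK, read 114 and 119.8 CPM in LN229 mock, 133 and 119 with control siRNA, and 76.7 and 53.3 with XRN2 siRNA. For U251 the values were 83.7 and 88.5, then 103 and 97.8, then 74.1 and 55.0. The treated libraries lay below all controls of their line. It was at −0.95 in LN229 (SE 0.18, adjusted p = 0.022) and at −0.63 in U251 (SE 0.18), the smallest unadjusted p of the list there, 0.0042, with an adjusted p of 1.0. HMMR (ENSG00000072571; chr5:163460203-163491945), a spindle protein that works with TPX2, read 66.7 and 75.6 CPM in LN229 mock, 62.3 and 81.3 with control siRNA, and 63.2 and 50.5 with XRN2 siRNA. In U251 it read 73.2 and 60.4, then 76.9 and 63.6, then 64.0 and 49.3. Treated and control siRNA libraries overlapped in both lines, at −0.34 (SE 0.19, adjusted p = 0.32) and −0.31 (SE 0.19). NUSAP1, which bundles spindle microtubules, was at −0.88 in LN229 (adjusted p = 0.035), and TPX2, KIF11 and DLGAP5 were at −0.65, −0.65 and −0.73 without passing.

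Genes of cytokinesis, the final separation of the daughter cells, had a median of −0.63 in LN229 and −0.39 in U251. In LN229 1 of 7 was called (1.95% of all tested genes). The call was RACGAP1, a subunit of centralspindlin, at −0.87 (SE 0.21, adjusted p = 0.046). Its partner KIF23 (ENSG00000137807; chr15:69414246-69448427) read 138 and 154 CPM in LN229 mock, 129 and 154 with control siRNA, and 109 and 72.8 with XRN2 siRNA. Its U251 values were 160.3 and 154, then 174 and 153, then 126 and 119. The treated libraries were below all controls in both lines, yet KIF23 did not pass, at −0.64 in LN229 (SE 0.18, adjusted p = 0.066) and −0.42 in U251 (SE 0.18, unadjusted p = 0.035). PRC1, ECT2, ANLN, KIF20A and KIF14 lay between −0.65 and −0.38 in LN229.

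Of the 2 chromosome proteins, neither passed. TOP2A (ENSG00000131747; chr17:40388516-40417950), the topoisomerase that untangles sister chromatids, read 499.5 and 543 CPM in LN229 mock, 378 and 564 with control siRNA, and 389.8 and 245 with XRN2 siRNA. The U251 libraries gave 665 and 530.4, then 697 and 611, then 552 and 483. Control siRNA replicate 1 of LN229 fell within the treated range, and the change was −0.57 against control siRNA (SE 0.23, adjusted p = 0.17) and −0.71 against mock (SE 0.23, adjusted p = 0.14), and −0.34 in U251. MKI67, the Ki-67 proliferation marker, was at −0.48 in LN229 against control siRNA (SE 0.32, adjusted p = 0.40), −0.79 against mock (SE 0.32, adjusted p = 0.25) and −0.39 in U251.

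The ranking in LN229 against control siRNA moved with exon length. Between the LN229 control siRNA replicates, the log2 difference (replicate 2 minus replicate 1) rose with exon length over the 45 genes (Spearman 0.82, and 0.49 over all tested genes), whereas in LN229 mock it was 0.06. Against control siRNA the 23 shorter genes had a median of −0.95 and the 22 longer ones −0.57, and over the 45 the fold change rose with length (Spearman 0.59). Against mock the medians were −0.76 and −0.69 (Spearman 0.13). In U251 the fold change of the 45 also rose with length, with a Spearman value of 0.44 against control siRNA and 0.36 against mock, where over all tested genes it was 0.02 and −0.0076. Genes near the top of the LN229 ranking, such as CKS1B, UBE2C and AURKB, lay less far from INCENP, KIF14 and MKI67 when mock was the control. MAD2L1 was lowest against both, and NUF2 was the third from the bottom against control siRNA and next to lowest against mock. With an offset for exon length in the fit, 24 of the 45 were called in LN229 against control siRNA and 20 against mock. Calls over all tested genes rose as well, to 392 lower against control siRNA and 236 against mock, from 278 and 105 without the offset.

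**Figure D5:**
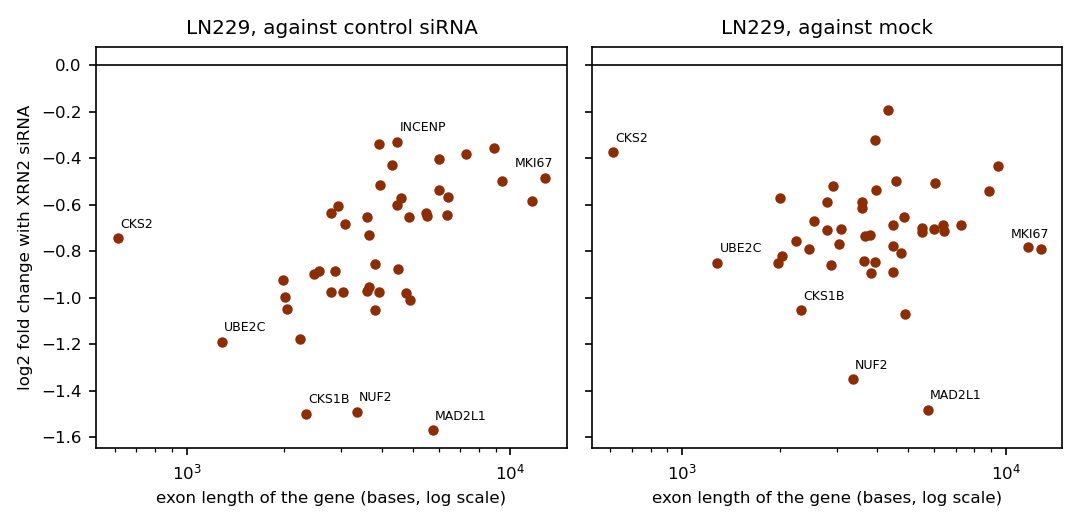
Log2 fold change with XRN2 siRNA in LN229 against exon length (log axis) for the 45 genes, with control siRNA (left) or mock (right) as the control. Short genes lie lower than long ones on the left (medians −0.95 and −0.57), and the medians are −0.76 and −0.69 on the right.

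Before knockdown the lines differed in 19 of the 45 genes in mock, a smaller share than the 7820 of all 14232 tested genes. Of the 45, 18 were higher in LN229 than in U251 (28% of all tested genes were) and 1 lower (26.9%), with a median of 0.40. Without U251 mock replicate 2 the median was 0.34. Without scaling factors the median of all tested genes moved from 0.03 to 0.21 in this comparison, that of the 45 from 0.40 to 0.58, and all calls from 3987 higher and 3833 lower to 5029 and 3060. ESPL1 was furthest apart, at 1.96 (SE 0.20, adjusted p = 2.7e-06), followed by SGO1 at 1.32 and RACGAP1 at 1.30, and ECT2, the exchange factor that activates RhoA in cytokinesis, was the gene called lower in LN229, at −0.50 (SE 0.18, adjusted p = 0.028). Per kilobase of exon, CKS2 had the highest level in mock in both lines, 137 ± 17.6 CPM per kb in LN229 and 151 ± 13.3 in U251 (SD, n = 2). UBE2C was next in LN229 at 116 ± 1.42 and was at 50.5 ± 1.79 in U251, where TOP2A was next at 92.9 ± 14.8. The lowest were CDC25C in LN229, at 7.17 ± 0.25, and SGO1 in U251, at 3.36 ± 0.31.

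Other genes of the same machinery also lay mostly below 0 in LN229. None of those lists had a call in U251 against control siRNA by edgeR, and none had a gene called higher. Against control siRNA in LN229, 1.95% of all tested genes fell. Among 26 further spindle genes, 6 fell in LN229 (median −0.57, and −0.31 in U251): CEP55, needed for abscission, by 1.20 (SE 0.20, adjusted p = 0.014), TROAP by 0.87, FAM83D by 0.83 and the kinetochore and spindle protein KNSTRN by 0.69, besides KIF22 and KIFC1. Among 37 further kinetochore genes 4 fell (median −0.56, and −0.20 in U251), SKA3 by 1.11 (SE 0.27, adjusted p = 0.044), SKA1 by 0.98, CENPU by 0.97 and CENPK by 0.86. Of 13 other regulators of mitotic entry 2 fell (median −0.44, and −0.16 in U251), CCNF, cyclin F, by 1.03 (adjusted p = 0.013) and PKMYT1, a kinase that inhibits CDK1, by 1.04 (adjusted p = 0.020).

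Of the 18 remaining APC/C genes, 3 fell in LN229 (1.95% of all tested genes did), the chain-elongating enzyme UBE2S by 0.95 (SE 0.20, adjusted p = 0.026), the core subunit ANAPC13 by 0.68 (adjusted p = 0.039) and FZR1, the activator CDH1, by 0.62 (adjusted p = 0.045), and the list's median was −0.22, against −1.02 for CDC20, UBE2C, PTTG1 and ESPL1. Of 18 condensin and cohesin genes none passed (5 lower at an unadjusted p under 0.05, as were 12.4% of all tested genes, median −0.38), with CDCA5, sororin, at −0.91 (SE 0.25, adjusted p = 0.067) and the cohesin loader NIPBL at 0.37 (SE 0.25, adjusted p = 0.40). Of 20 genes of the transcriptional regulators (E2F, RB family, MuvB core, B-MYB and NF-Y) none passed either (4 lower at an unadjusted p under 0.05, against the same 12.4%, median −0.18), with MYBL2, which encodes B-MYB, at −0.91 (SE 0.25, adjusted p = 0.065) and RBL2, the p130 subunit of DREAM, at 0.54 (SE 0.18, adjusted p = 0.11).

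Of genes that act earlier in the cell cycle, all 36 for replication and G1/S lay below 0 in LN229 against control siRNA (50.1% of all tested genes did; median −0.61), and 3 fell (1.95% of all tested genes), POLE2 by 1.39 (SE 0.33, adjusted p = 0.043), GINS2 by 0.99 (adjusted p = 0.040) and LIG1 by 0.80 (adjusted p = 0.049). In U251 0 passed, and 34 of the 36 lay below 0 against control siRNA (49.5% of all tested genes; median −0.25) and 16 against mock (46.2%; median 0.02), where the mitosis genes had 44 of 45 below 0. Without U251 mock replicate 2, 30 of the 36 lay below 0 against mock (median −0.19) and 45 of the 45 mitosis genes did (median −0.37). A separate list of 16 genes held CDK inhibitors, D-type cyclins and their kinases, and others such as BTG1, BTG2, CCNG1 and CCNG2. Of these, 12 were tested and 2 fell in LN229 (1.95% of all tested genes did), with a list median of −0.16. The calls were CDK6, by 1.07 (SE 0.25, adjusted p = 0.039), and CDKN3, by 0.93 (adjusted p = 0.034). Without LN229 control siRNA replicate 1 the counts called in LN229 were 1 for these (median 0.04), 0 for replication, 1 for the further spindle genes, 0 for the further kinetochore genes, 1 for mitotic entry and 0 for the remaining APC/C genes (median −0.07), and without LN229 XRN2 siRNA replicate 2 all were 0.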

How the data were processed

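Polyadenylated RNA libraries (Illumina TruSeq RNA v2, which keeps no strand) from 12 samples were counted by the authors, who deposited 1 table per library. Per the file headers, the values used are whole-number counts of total exon reads per gene, beside unique exon and intron read counts, positions and exon lengths; deposited TPM and RPKM were not used. GRCh37 and hg19 stand in the submitters' processing notes, but 55963 of 57836 identifiers found in GENCODE release 29 as well, and all 45 genes described, have its GRCh38 positions. Which aligner and counter were used was not given in the sources used here. Reads of overlapping genes cannot be told apart by strand. Of the 45 genes, 8 had under 90% unique exon reads, among them FOXM1, CKS1B, SGO1, PRC1, HMMR and KIF2C. Why was not tested, and CKS1B and HMMR overlap only genes with 0 exon reads.

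Genes were kept by filterByExpr (minimum count 10, minimum total 15), which left 14232, scaled by TMM (factors 0.927 to 1.13) and fitted with 1 mean per group over all 12 libraries (6 residual degrees of freedom) in edgeR 4.0.16 under R 4.3.3. Contrasts were tested with the robust quasi-likelihood F-test, two-sided, with Benjamini-Hochberg adjustment at 0.05, and the script was tested on simulated data. CPM are TMM-scaled unless said otherwise, errors are SE of the fitted log2 fold change or SD over 2 libraries, and a count of 0 allows up to 3 reads, counting error only. Alternatives were DESeq2 1.42.0, other scalings and filters, offsets for exon length, unique reads, a replicate block, smaller sets of libraries and each library left out. Values of the role groups and other lists without a library were added after seeing the data.

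The 45 genes and the other lists were chosen with earlier results of these data known. Values by library are given for the 5 lowest and 3 highest of the 45 in each line and the smallest p of each role in the mean of both lines; from other lists up to 4 genes are named, those called by smallest p in the mean or, with none called, the lowest and the highest. Promoter windows came from RefSeq, matched by symbol.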

Additional observations from a re-analysis of the deposited data

How the results depend on the processing

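Precision was limited by 2 libraries per group. Counting error added to this for the genes with the fewest reads, such as SGO1, CDC25C and NUF2, with minima of 60, 66 and 86 reads. Fits in which 1 library is left out assume that the lone replicate varies like the other groups. The cause of each shift given here was not tested, apart from fewer libraries or genes in a fit. In every setting run, 41 of the 45 genes stayed below 0 against control siRNA in LN229, 43 in U251 and 45 in the mean, and against mock 45 in LN229 and 34 in U251. None was called in every setting.

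With 1 library left out, the counts of the 45 called lower ran from 0 to 32 in LN229 and from 0 to 33 in the mean against control siRNA, from 0 to 30 in LN229 against mock, from 0 to 1 for the difference between lines, from 0 to 3 for control siRNA against mock in LN229, and from 14 to 23 called for LN229 against U251 in mock. They stayed at 0 in U251. Counts over all genes ran from 1 to 3296 (LN229) and from 1 to 8 (U251) against control siRNA, from 1 to 658 and from 1 to 768 against mock, from 1 to 2370 for the mean, from 0 to 1115 for the difference, from 0 to 1913 (LN229) and from 0 to 475 (U251) for control siRNA against mock, and from 6060 to 8765 between the lines.

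Signs turned in these fits only. Against control siRNA, INCENP ran from −0.64 to 0.13, CENPF from −0.99 to 0.035, KIF14 from −0.78 to 0.24 and MKI67 from −0.91 to 0.19 in LN229, without control siRNA replicate 1 and 2 in that order, and in U251 TTK ran from −0.36 to 0.0059 (without control siRNA replicate 2 and 1) and SGO1 from −0.28 to 0.15 (without XRN2 siRNA replicate 1 and 2). Against mock in U251, KIF11 ran from −0.37 to 0.088, NUSAP1 from −0.39 to 0.011, DLGAP5 from −0.43 to 0.28, KIF20A from −0.43 to 0.18, ANLN from −0.37 to 0.21, MKI67 from −0.40 to 0.11, TTK from −0.24 to 0.11 and INCENP from −0.16 to 0.55 (without mock replicate 2 and 1), and BUB1 from −0.28 to 0.054, BUB1B from −0.27 to 0.12 and SGO1 from −0.35 to 0.081. Without XRN2 siRNA replicate 2, BUB1 was at 0.03, BUB1B 0.11, TTK 0.03 and ANLN 0.0088.

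DESeq2 called 20 of the 45 in LN229 against mock and 31 in the mean. Over all genes it called 773 and 9 (LN229 and U251, control siRNA), 412 and 34 (mock), 471 (mean), 15 (difference) and 1 (control siRNA against mock in LN229). Without a filter, 38 and 1 of the 45 were called against control siRNA, 39 and 1 against mock, 37 in the mean and 2 in the difference. Over all genes these were 1550 and 69, 1026 and 502, 1035 and 144, with 70 and 247 for control siRNA against mock. With exon length offsets, 20 (LN229, mock) and 24 (mean) of the 45 were called, and 5 (U251), 446 and 11 (mock) and 333 (mean) over all genes. Unique reads gave 4 genes in U251, and both controls as 1 gave 817 and 10. LN229 alone gave 1 gene and 0 of the 45 against either control, and U251 alone 7 genes. The compared groups alone gave 4 genes and 0 of the 45 (LN229), 497 and 29 (U251), 103 and 1 (LN229, mock), 1 gene (U251, mock), and 16 and 0 (mean).

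Over all tested genes, same-numbered libraries did not deviate together (15 correlations between −0.07 and 0.10, none over 0.1), so the numbers were not taken to pair them. Over the 45 genes, replicate 2 was lower for 33, 44 and 45 in U251 mock, control siRNA and XRN2 siRNA, in that order. In LN229 replicate 2 was lower for 44 with XRN2 siRNA, but higher for 35 in mock and 26 with control siRNA. The replicate block gave 16 of the 45 in LN229 against mock, 23 in the mean and 262 genes in the mean. The replicate block with exon length offsets gave 735 and 4 genes against control siRNA, 524 and 23 of the 45 in LN229 against mock, and 414 and 25 in the mean.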
